A study of Mus musculus with 8 samples.

Results

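Sirpa-positive dendritic cells of the mouse thymus were followed through maturation by setting mature cells against immature cells across all genes on an expression array. Sirpa is an inhibitory surface receptor that marks 1 of the main subsets of dendritic cells. The samples were chosen by their titles, which put 4 of the 8 arrays of the study in this comparison: Sirpa_Pos_Mature (2 arrays, replicates 1 and 6) and Sirpa_Pos_Immature (2 arrays, replicates 3 and 5), called mature 1, mature 6, immature 3 and immature 5 below. The other 4 arrays hold Sirpa_Neg_Mature and Sirpa_Neg_Immature cells and are used here for the shared estimate of the spread and where a difference between the subsets is tested. The study, by its title, concerns the role of CD40 in how these cells mature and in how regulatory T cells arise. Per the labels the cells were sorted from thymus by Sirpa and by maturation status. No strain, age, treatment or further sort marker is given there, and no label says whether paired arrays stem from different mice or sorting runs. The spread that the p-values rest on is that between these samples and may be technical.

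Dendritic cells sample antigen while immature and present it to T cells once mature. On maturation they are known to take up less material from outside, to display peptides and costimulatory molecules at the surface, and to move by way of the chemokine receptor CCR7. In the thymus, mature dendritic cells of the medulla present self antigen to developing T cells, which leads to deletion of self-reactive cells or to regulatory T cells. CD40, a receptor of the TNF receptor family, signals through TRAF adaptors to the NF-kB transcription factors.

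Each value below is a log2 level, found by dividing a probe's processed signal by the 75th percentile of its array and taking log2, so that 0 is the 75th percentile. Changes are mature minus immature on that scale, with 2 arrays a group, and are given with their standard error (SE). The SE is limma's moderated one, which rests on the spread within groups over all 8 arrays. It is therefore not the scatter of the 4 values listed for a gene. Adjusted p-values come from limma with Benjamini-Hochberg adjustment over all 24145 features tested. A feature rose or fell where its adjusted p was under 0.05. A change is called steady here where it passed also in each of the 4 fits that leave out 1 of the Sirpa-positive arrays and the groups did not overlap. Values of a gene are given for mature 1 and mature 6, and then for immature 3 and immature 5. The 75th percentile was 289 and 147 intensity units on the mature arrays (replicates 1 and 6) and 250 and 313 on the immature arrays (replicates 3 and 5). Mature 6 was the dimmest of these 4 arrays, with 53.2% of spots well above background. The others had 65.5% (mature 1), 57.9% (immature 3) and 65.1% (immature 5). No spot (0) was saturated, and the arrays of a group correlated at 0.980 (mature) and 0.987 (immature) across features. Some counts are given also under another processing: normexp background correction with quantile normalization (normexp below), quantile normalization alone, scaling to the median, or the authors' deposited values. The slide had 2 rows, with mature 1 and immature 5 in the first and mature 6 and immature 3 in the second, so that each row gives its own difference.

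Levels of Sirpa, of dendritic cell genes and of Ccr7 describe the sorted cells but do not test the labels. No Sirpa level is given here for the Sirpa-negative arrays, and the labels name no sort marker of maturation. Ccr7 is itself among the rises of this comparison. Sirpa stood at 4.27 and 3.95 on the mature arrays, against 4.68 and 4.54 on the immature arrays, and its difference did not pass (-0.50 ± 0.224, adjusted p = 0.272). The dendritic cell genes Itgax (the integrin chain CD11c), Flt3 (a cytokine receptor of dendritic cell progenitors) and Zbtb46 (a transcription factor of the conventional lineage) were well above background on all 4 arrays. Their differences were -0.51, 0.12 and -0.02, and none of these passed (adjusted p = 0.315, 0.803 and 0.978). The sign of the Zbtb46 difference turned under 3 settings. Xcr1, which marks the other main subset, was not well above background on either mature array, and its difference did not pass (adjusted p = 0.166). Ccr7 stood at 5.21 and 5.22 on the mature arrays, against -0.45 and -1.45 on the immature arrays, with no overlap.

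Markers of thymocytes and T cells, the most abundant cells around thymic dendritic cells, were higher on the mature arrays. Of 28 tested, 10 rose and 0 fell, with a median change of 0.91. Each marker was well above background on at least 1 mature array. With normexp or the authors' values 9 rose and 1 fell. With 1 array left out, T cell rises numbered 1 (without mature 6 or immature 3) to 3 (without mature 1), and 5 with slide rows as a block. Their summed level, in multiples of the 75th percentile, was 82.2 and 86.6 on the mature arrays, against 61.9 and 55.1 on the immature arrays. Cd3e, a chain of the T cell receptor complex, stood at 0.59 and 0.54 on the mature arrays, against -0.19 and -0.14 on the immature arrays (0.73 ± 0.202, adjusted p = 0.0850), and the other chains Cd3d and Cd3g had differences of 0.90 and 0.85; none of these chains passed. Rag2 was not well above background on either immature array. Of 28 macrophage and monocyte markers 0 rose and 3 fell, with a median of -0.76. Of these markers 26 had a difference below 0 and 2 above it, and the median was -0.51 in the first slide row and -1.02 in the second. Their summed levels, in which bright genes weigh most, overlapped between the groups, at 1305 and 1666 on the mature arrays, against 1833 and 1410 on the immature arrays. Macrophage falls numbered 0 with any 1 array left out, and 1 with slide rows as a block, 6 with median scaling or quantile normalization, 10 with normexp and 8 with the authors' values. Of 12 B cell and plasma cell markers 2 rose and 1 fell, and of 12 NK and innate lymphoid markers 2 rose and 0 fell. The part of other cells in the changes below was not tested. Some genes below lie outside the naming rule and were picked after their values were seen: Cd3d, Cd3e, Cd3g, Fscn1, Cd209f, Cd27, Nfkb1, Nfkb2, Rela, Stat2, Cdc20, Cdk1, Ube2c, Top2a, Cdkn2a, Alox5, Alox5ap, Bcl2l1, Fas, Maf, Hpgds, Il1rl2, Axl, H2-Aa, Cd74 and Itgax. In a bulk sample, fewer cells of a type and less RNA per cell cannot be told apart.

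Across the array, 1050 features rose (4.35% of those tested) and 612 fell (2.53%), 6.88% in all. Among the 13865 features with a gene symbol, from which the gene lists are drawn, 5.56% rose and 3.42% fell. Of all 24145 features tested, 235 rises (0.973%) and 44 falls (0.182%) were steady. Rises outnumbered falls more among large changes. Changes of at least 2 on the log2 scale were 420 rises and 81 falls, changes of at least 3 were 179 and 12, changes of at least 4 were 69 and 2, and changes of at least 5 were 21 and 0. The median rise was 1.74 and the median fall -1.32. Features that rose had a median level of 0.47 on the mature arrays and -1.58 on the immature arrays. Those that fell had -0.89 (mature) and 0.49 (immature). Over all features the medians were -0.42 (mature) and -0.43 (immature). The 2 slide rows gave differences that correlated at 0.539 across 24136 features, a description in which features are not independent and each row shares its 2 arrays. All 1662 called features had the same sign in both rows, and the groups did not overlap in 51.1% of all features, called or not. By detection, 175 features were well above background on both mature arrays and on neither immature array, and 181 the reverse; 108 of the first and 39 of the second also passed the test. In the second row alone, which holds the dim mature 6, 637 features were gained and 2206 lost, against 336 and 329 in the first row. The count of calls falls with an array left out: rises numbered 664 without mature 1, 309 without mature 6, 326 without immature 3 and 339 without immature 5, and falls 243, 84, 85 and 109 in the same order. With slide rows as a block there were 765 rises and 296 falls.

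**Figure D1:**
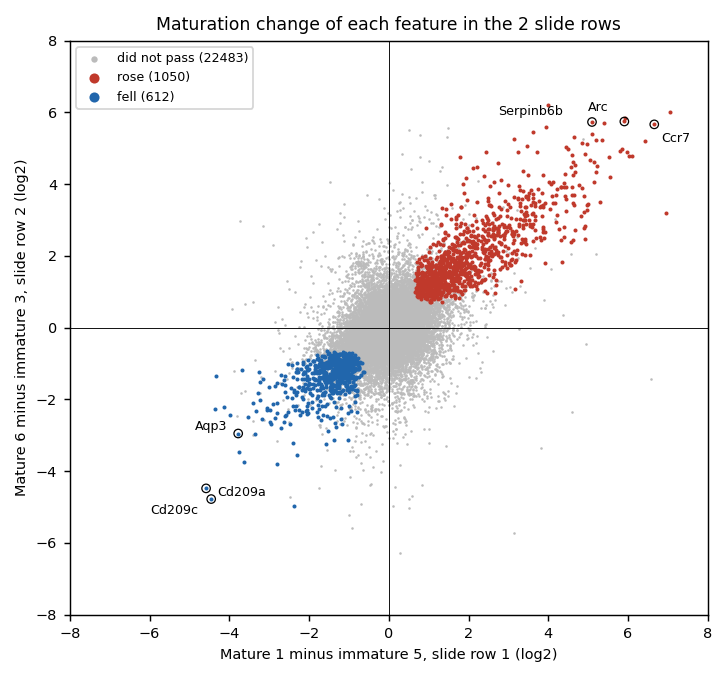
Change of every tested feature in the first slide row (mature replicate 1 minus immature replicate 5, x axis) and in the second (mature replicate 6 minus immature replicate 3, y axis), both on the log2 scale. Red points rose (1050), blue points fell (612) and grey points did not pass; the called features lie in the 2 quadrants where the rows agree in sign, and the rises reach further from 0 than the falls.

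The genes long used to describe dendritic cell maturation rose together. Of 41 tested members of a maturation and migration core, 34 rose and the other 7 did not pass, with a median change of 2.68, against 0.03 over all features. The core was chosen with such results known, so its count is a description. Core rises numbered 19 (without mature 6) to 26 (without mature 1). Ccr7 rose by 6.16 ± 0.597, adjusted p = 0.00255, and Cd83, a surface protein that stabilises MHC class II, stood at 5.63 and 5.84 on the mature arrays, against 3.27 and 3.40 on the immature arrays (2.40 ± 0.273, adjusted p = 0.00455). Fscn1, the actin bundler of dendrites, rose by 3.69 ± 0.434, adjusted p = 0.00508, and Cd70, the ligand of CD27, by 4.98 ± 0.287, adjusted p = 0.000686. All 4 changes were steady. Cd40 stood at 5.30 and 5.07 on the mature arrays, against 3.24 and 2.82 on the immature arrays (2.16 ± 0.314, adjusted p = 0.0103), and Cd80, which binds CD28 on T cells, at 2.48 and 2.64 on the mature arrays, against 1.12 and 1.26 on the immature arrays (1.38 ± 0.231, adjusted p = 0.0165). The groups did not overlap for either gene, but the call of Cd40 was lost at an adjusted p of 0.0522 to 0.0793 without mature 1, mature 6 or immature 5. That of Cd80 was lost at 0.0542 to 0.114 with any 1 array left out, and the 2 probes of Cd80 disagreed, with changes of -0.56 and 1.38. Cd86, the second CD28 ligand, stood at 1.60 and 2.01 on the mature arrays, against 1.12 and 0.96 on the immature arrays, a difference that did not pass (0.76 ± 0.215, adjusted p = 0.0906).

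**Figure D2:**
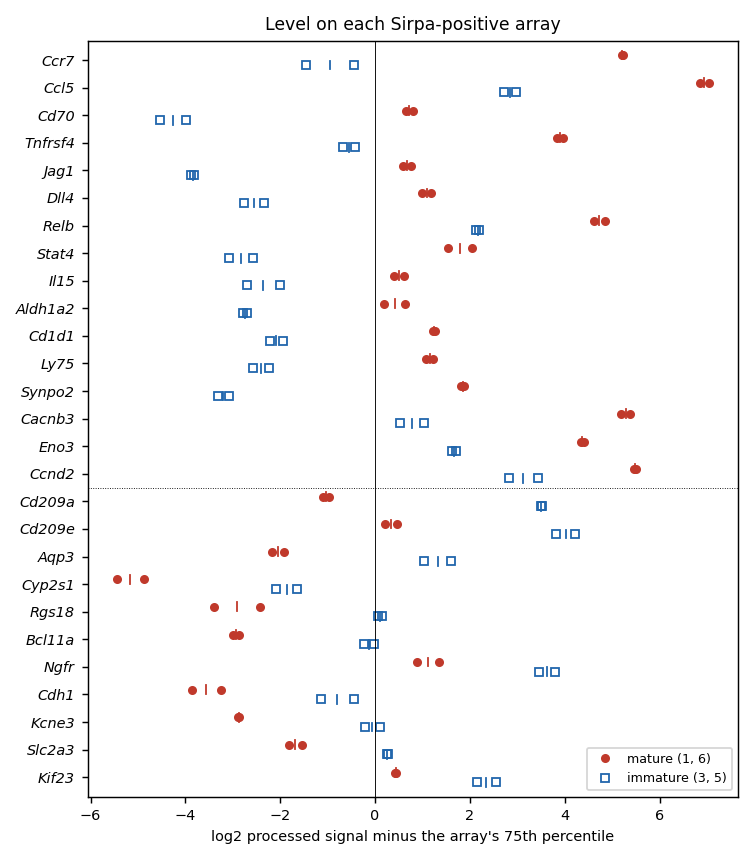
Level of 27 named genes on each Sirpa-positive array, as the log2 level scaled to the 75th percentile; filled red circles are the mature arrays (replicates 1 and 6), drawn above the open blue squares of the immature arrays (replicates 3 and 5), and short bars are group means. Genes above the dotted line rose and those below it fell. All were picked among steady changes, in which the 2 groups do not overlap by definition.

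Receptors that bind and take up material fell more often than they rose. Of 29 tested endocytic C-type lectins, which bind sugars on microbes and dying cells, 10 fell and 1 rose (2 rose with median scaling, quantile normalization or normexp, 3 with the authors' values). Lectin falls numbered 4 (without immature 3 or immature 5) to 5 (without mature 1 or mature 6), and 6 with slide rows as a block. Cd209a stood at -1.09 and -0.97 on the mature arrays, against 3.51 and 3.49 on the immature arrays (-4.53 ± 0.242, adjusted p = 0.000686). Its relatives Cd209d and Cd209e changed by -3.61 ± 0.220 and -3.69 ± 0.230, while Cd209f, at -3.25 and -3.21 on the mature arrays, against -2.92 and -3.60 on the immature arrays, had a difference of 0.03 and did not pass. Cd209c was not well above background on either mature array and was at least 9.91-fold lower there (adjusted p = 0.00255). The 4 Cd209 falls were steady, but these relatives can share probe binding, so the single values are uncertain. The member that rose in the main comparison was Ly75, the receptor DEC-205, which carries antigen to late endosomes. Its level was 1.08 and 1.22 on the mature arrays, against -2.24 and -2.58 on the immature arrays (3.56 ± 0.206, adjusted p = 0.000686, steady).

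Other uptake receptors also fell, with smaller changes. Among 35 scavenger and dying-cell receptors 7 fell, and among 11 Fc receptors 3 fell; no other member of either list passed, though 1 scavenger receptor rose with normexp or the authors' values. Scavenger falls numbered 0 (without mature 6, immature 3 or immature 5) to 3 (without mature 1), and 1 with slide rows as a block, 13 with normexp and 11 with the authors' values. Those of Fc receptors numbered 0 (without immature 3) to 2 (without mature 1), and 6 with normexp. Scarb1, a receptor for lipoproteins, stood at -0.57 and -0.88 on the mature arrays, against 0.65 and 0.54 on the immature arrays (-1.32 ± 0.202, adjusted p = 0.0124; call lost at 0.0749 to 0.0957 without mature 6, immature 3 or immature 5). Lrp1, a large receptor for many ligands, changed by -1.15 ± 0.240 (adjusted p = 0.0342; call lost at 0.154 to 0.174 without mature 6, immature 3 or immature 5). The antibody receptor relative Fcrls changed by -2.81 ± 0.357 (adjusted p = 0.00636; call lost at 0.0519 to 0.0549 without mature 6 or immature 3). Of 46 Toll-like and other innate sensors, 3 rose and 1 fell, against 3 and 5 with normexp and 3 and 4 with the authors' values. Nlrp3, the sensor of an inflammasome, fell by 1.42 ± 0.259, adjusted p = 0.0221 (call lost at 0.0861 to 0.145 with any 1 array left out). Rises of sensors numbered 0 (without mature 6, immature 3 or immature 5) to 2 (without mature 1). Complement genes gave 2 rises and 1 fall of 20, but 0 and 1 with normexp or the authors' values. Complement rises numbered 0 (without mature 1, mature 6 or immature 3) to 1 (without immature 5), and 1 with slide rows as a block or median scaling and 0 with normexp or the authors' values.

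Genes for eicosanoids, lipid mediators made from arachidonic acid, fell more often than features at large. Of 36 tested, 8 fell and 1 rose. Eicosanoid falls numbered 1 (without mature 6 or immature 5) to 3 (without mature 1), and 13 with normexp or the authors' values. Cyp2s1, a cytochrome P450, was not well above background on either mature array and was at least 4.22-fold lower there (adjusted p = 0.00166, steady). Alox5, the enzyme that starts leukotriene synthesis, stood at -3.26 and -2.86 on the mature arrays, against -0.35 and -0.41 on the immature arrays (-2.68 ± 0.414, adjusted p = 0.0126; call lost at 0.0619 to 0.0834 with any 1 array left out). Its partner Alox5ap changed by -2.13 ± 0.393 (adjusted p = 0.0230; call lost at 0.0636 to 0.143 with any 1 array left out), and the leukotriene B4 receptor gene Ltb4r1 by -2.86 ± 0.372 (adjusted p = 0.00695; call lost at 0.0524 to 0.0549 without mature 6 or immature 5). The riser was Ptger4, a receptor for prostaglandin E2, at 1.76 and 1.76 on the mature arrays, against -0.12 and 0.36 on the immature arrays (1.64 ± 0.222, adjusted p = 0.00790; call lost at 0.0565 to 0.0614 without mature 6 or immature 3).

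Antigen processing changed at few points. Of 42 lysosomal proteases and hydrolases 1 fell, against 8 falls and 1 rise with normexp. Subunits of the vacuolar ATPase, which acidifies endosomes, gave 1 fall of 22. In both lists the fall count was 0 with any 1 of the 4 arrays left out. Of 19 MHC class II pathway genes 2 rose, and with normexp 2 others fell (with the authors' values 1). The risers were Cd83, given above, and H2-Eb2, a less studied beta chain, at 1.98 and 1.89 on the mature arrays, against -0.99 and -1.56 on the immature arrays (3.21 ± 0.288, adjusted p = 0.00211). The classical chain H2-Aa stood at 8.18 and 8.81 on the mature arrays, against 8.41 and 8.06 on the immature arrays, and the invariant chain Cd74 at 8.72 and 9.08 on the mature arrays, against 8.73 and 8.62 on the immature arrays. The groups overlapped for both genes, with differences of 0.26 ± 0.276 and 0.22 ± 0.212 that did not pass. Ciita, the transactivator of class II genes, had a difference of -0.20 ± 0.264, adjusted p = 0.749, and did not pass. In the MHC class I pathway 4 of 28 rose, while 1 gene fell with quantile normalization, normexp or the authors' values. Class I rises numbered 2 (without mature 6, immature 3 or immature 5) to 3 (without mature 1), and 2 with slide rows as a block. Cd1d1, which presents lipids, stood at 1.22 and 1.26 on the mature arrays, against -1.95 and -2.22 on the immature arrays (3.33 ± 0.257, adjusted p = 0.00136), and Tapbpl, a peptide editor, at 2.81 and 3.14 on the mature arrays, against 1.01 and 1.04 on the immature arrays (1.95 ± 0.200, adjusted p = 0.00317). Both were steady.

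Molecules that act on T cells changed in both directions. Of 31 costimulatory and coinhibitory ligands 8 rose and 2 fell. Costimulatory rises numbered 2 (without mature 1, mature 6 or immature 5) to 4 (without immature 3), and the falls 0 with any 1 array left out, and 1 with slide rows as a block or quantile normalization, 7 with normexp and 5 with the authors' values. Cd200, whose receptor inhibits myeloid cells, stood at 2.02 and 1.86 on the mature arrays, against -1.53 and -1.80 on the immature arrays (3.61 ± 0.342, adjusted p = 0.00243). The gene of that receptor, Cd200r1, went the other way, at -3.73 and -3.54 on the mature arrays, against -0.90 and -1.09 on the immature arrays (-2.64 ± 0.505, adjusted p = 0.0261; call lost at 0.101 to 0.140 with any 1 array left out). Nectin3, a ligand of TIGIT family receptors and of nectins, was not well above background on the immature arrays and at least 5.31-fold higher on the mature ones (adjusted p = 0.00200, steady). Both Notch ligands that rose were steady. Jag1 stood at 0.76 and 0.60 on the mature arrays, against -3.88 and -3.81 on the immature arrays (4.53 ± 0.382, adjusted p = 0.00173), well above background on 1 of the 2 immature arrays, and Dll4 at 0.99 and 1.19 on the mature arrays, against -2.35 and -2.77 on the immature arrays (3.65 ± 0.288, adjusted p = 0.00146). The rest of 31 tested Notch pathway genes gave 1 fall, Mfng (-0.99 ± 0.204, adjusted p = 0.0328; call lost at 0.104 to 0.200 with any 1 array left out).

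In the TNF superfamily 11 of 35 genes rose and 5 fell. Rises in that family numbered 4 (without mature 6) to 5 (without mature 1, immature 3 or immature 5), and falls numbered 1 (without immature 5) to 3 (without mature 1), and 9 with normexp. Tnfrsf4, the receptor OX40, stood at 3.96 and 3.84 on the mature arrays, against -0.42 and -0.67 on the immature arrays (4.44 ± 0.291, adjusted p = 0.000875), and Lta, the gene of lymphotoxin alpha, which lymphocytes also make, at 0.02 and 0.09 on the mature arrays, against -3.51 and -3.23 on the immature arrays (3.42 ± 0.404, adjusted p = 0.00511). Among the falls, Ngfr, the low-affinity nerve growth factor receptor, stood at 0.89 and 1.34 on the mature arrays, against 3.46 and 3.80 on the immature arrays (-2.51 ± 0.237, adjusted p = 0.00243). These 3 were steady. Tnfrsf13c, the receptor for the B cell factor BAFF, changed by -2.24 ± 0.298 (adjusted p = 0.00737; call lost at 0.0522 without immature 5). Cd27, the receptor of Cd70 and also a T cell marker, rose by 1.14 ± 0.218, adjusted p = 0.0259 (call lost at 0.121 to 0.157 without mature 6, immature 3 or immature 5). T cell markers moved in the same direction as this list's rises, at the summed levels given above, and their part in it was not tested.

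**Figure D3:**
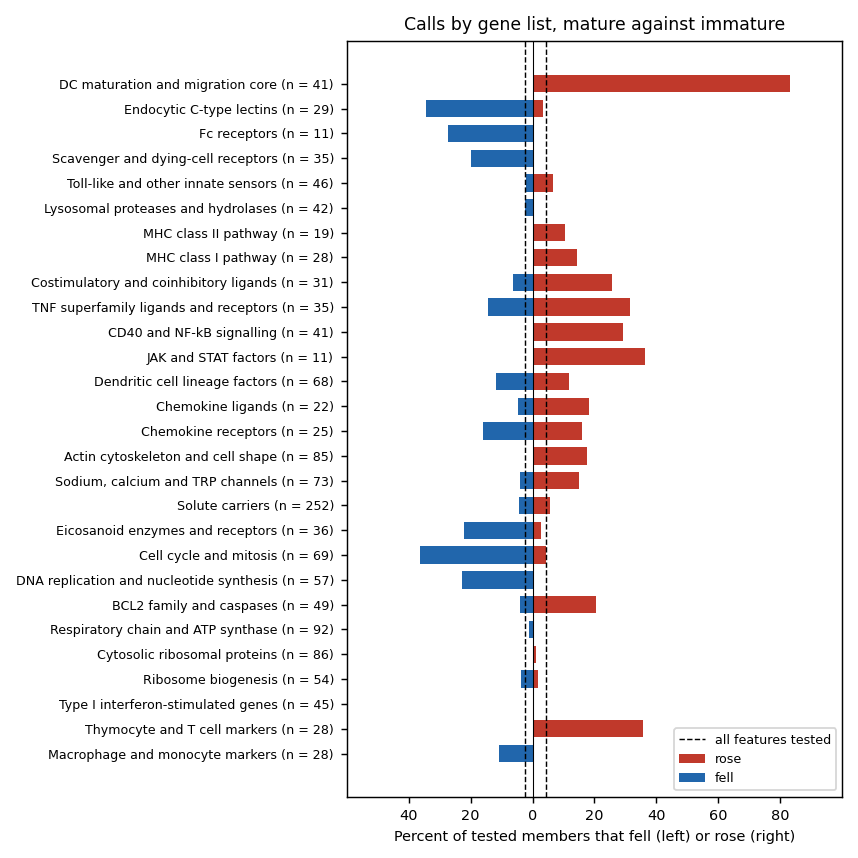
Percent of the tested members of 28 gene lists that rose (red, to the right) or fell (blue, to the left) in mature against immature Sirpa-positive cells, with the number tested in brackets. Dashed lines mark the shares over all 24145 features, 4.35% risen and 2.53% fallen; the maturation core stands at 82.9% risen and the cell cycle list at 36.2% fallen, while interferon-stimulated genes have no call in either direction.

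Signalling from CD40 to NF-kB showed rises only among its called genes. Of 41 tested genes 12 rose, with a median change of 0.60. NF-kB rises numbered 3 (without mature 6 or immature 5) to 4 (without mature 1 or immature 3), and 5 with slide rows as a block. Relb, the NF-kB subunit of the non-canonical arm, stood at 4.61 and 4.84 on the mature arrays, against 2.14 and 2.18 on the immature arrays (2.56 ± 0.221, adjusted p = 0.00187). Birc2, a ubiquitin ligase that acts on TRAF complexes, changed by 2.76 ± 0.202 (adjusted p = 0.00115) and the adaptor gene Traf1 by 2.20 ± 0.244 (adjusted p = 0.00420). All 3 were steady. Nfkb2, the partner of Relb, stood at 5.27 and 5.71 on the mature arrays, against 4.10 and 4.23 on the immature arrays (1.32 ± 0.221, adjusted p = 0.0162; call lost at 0.0884 to 0.114 without mature 6, immature 3 or immature 5). The canonical subunits Nfkb1 and Rela had differences of -0.32 ± 0.224 and 0.70 ± 0.248 and did not pass (adjusted p = 0.509 and 0.163).

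Promoters of risen genes were searched for the kappaB motif, the consensus letters bound by NF-kB, on both strands of RefSeq windows of GRCm38.p6 that run from 250 bases before to 50 bases after a gene's start. It was found in 113 of 594 risen genes with a window (19.0%), in 44 of 374 fallen genes (11.8%) and in 12% of all 11083 tested genes with a window. Among steady rises 19 of 137 held it (13.9%), in the risen maturation core 2 of 22 (9.09%) and in the risen NF-kB list 3 of 9. Letters of AP-1, ISRE core, E2F and SRE motifs were searched too. They were in 6.23%, 4.71%, 8.75% and 1.18% of risen genes, against 6.86%, 3.83%, 8.98% and 1.4% of all. A match describes these letters and shows no binding. The stretches below, all upstream of the start and chosen after the values were seen, come from Nfkb2 and from Il2ra and Mmp25, 2 steady risers described in the following paragraphs. Capitals mark kappaB letters on either strand, including overlapping matches, and each stretch runs 5′ to 3′ toward its gene.
Nfkb2, chr19:46304657-46304736, plus strand: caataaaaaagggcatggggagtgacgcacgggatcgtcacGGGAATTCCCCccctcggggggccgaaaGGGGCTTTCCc
Il2ra, chr2:11642572-11642651, plus strand: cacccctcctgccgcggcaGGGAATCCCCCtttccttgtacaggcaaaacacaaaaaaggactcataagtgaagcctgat
Mmp25, chr17:23645290-23645369, minus strand: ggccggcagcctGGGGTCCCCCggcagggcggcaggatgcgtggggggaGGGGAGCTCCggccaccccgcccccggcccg

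Among other transcription factors, rises and falls were equal in number in a list of dendritic cell lineage factors, with 8 and 8 of 68. Lineage rises numbered 1 (without mature 6, immature 3 or immature 5) to 4 (without mature 1), and 4 with slide rows as a block, and lineage falls 1 (without immature 3) to 3 (without mature 6 or immature 5), and 4 with slide rows as a block. Etv3, an ETS family repressor, stood at 3.02 and 3.33 on the mature arrays, against 0.80 and 0.86 on the immature arrays (2.35 ± 0.242, adjusted p = 0.00319), and Bcl11a, needed for plasmacytoid and lymphoid development, at -3.0 and -2.88 on the mature arrays, against -0.24 and -0.03 on the immature arrays (-2.81 ± 0.347, adjusted p = 0.00587). Both were steady. Klf4 changed by -1.93 ± 0.231 (adjusted p = 0.00537; call lost at 0.0502 without immature 3). Irf1, a factor of the interferon response, rose by 1.91 ± 0.249, adjusted p = 0.00707 (call lost at 0.0530 to 0.0583 without mature 6, immature 3 or immature 5). Irf4, a factor of the Sirpa-positive subset, stood at 1.95 and 1.97 on the mature arrays, against 1.52 and 1.84 on the immature arrays (0.27 ± 0.248, adjusted p = 0.628). Irf8, a factor of the other subset, stood at 5.35 and 5.97 on the mature arrays, against 4.66 and 4.79 on the immature arrays (0.94 ± 0.246, adjusted p = 0.0716). Neither passed, but Irf8 did without mature 1 (adjusted p = 0.0449). Spib rose by 1.43 ± 0.299, adjusted p = 0.0341 and Tcf4 fell by 0.94 ± 0.188, adjusted p = 0.0296, a pair known from plasmacytoid cells. The call of Spib was lost at 0.111 to 0.197 with any 1 array left out, and that of Tcf4 at 0.0972 to 0.172 with any 1 array left out. Plasmacytoid markers, a list that holds Spib and Tcf4, gave 2 rises and 1 fall of 18 (1 and 2 with median scaling, 2 and 3 with normexp). Their summed levels overlapped, at 193 and 230 on the mature arrays, against 201 and 212 on the immature arrays. Csf1r, the receptor for macrophage colony-stimulating factor, had a difference of -0.80 ± 0.206, adjusted p = 0.0678, and did not pass. Aire, best known from medullary epithelial cells, where it drives self antigens, rose by 2.29 ± 0.358, adjusted p = 0.0132 (call lost at 0.0610 to 0.0968 without mature 6, immature 3 or immature 5). Thymic epithelial and stromal markers gave 2 rises and 2 falls of 14. The 2 rises were Aire itself and Dll4, so this count is not separate from the Aire value. Summed levels of the list, Aire included, were 29.9 and 30.0 on the mature arrays, against 25.8 and 28.6 on the immature arrays. The part of epithelial and stromal cells in the Aire value was not tested.

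Of 11 JAK and STAT genes 4 rose. Stat4, the mediator of interleukin-12 signals in T and NK cells, stood at 2.04 and 1.54 on the mature arrays, against -3.08 and -2.57 on the immature arrays (4.62 ± 0.543, adjusted p = 0.00508), steady, while Stat2, which carries interferon signals, had a difference of -0.25 and did not pass. STAT rises numbered 1 (without mature 6, immature 3 or immature 5) to 2 (without mature 1), and 1 with slide rows as a block. Of 36 immediate early genes 8 rose and 3 fell (7 fell with normexp, 6 with the authors' values). Immediate early rises numbered 4 (without immature 3) to 7 (without mature 1). Arc, an activity-induced gene of neurons, stood at 3.64 and 3.52 on the mature arrays, against -2.23 and -2.26 on the immature arrays (5.83 ± 0.529, adjusted p = 0.00224), and the orphan nuclear receptor gene Nr4a3 at 1.01 and 0.66 on the mature arrays, against -1.70 and -2.10 on the immature arrays (2.73 ± 0.317, adjusted p = 0.00492). Gadd45a and Btg1, both linked to growth arrest, rose by 1.97 ± 0.233 and 1.99 ± 0.214 (adjusted p = 0.00522 and 0.00369). All 4 were steady. Egr3, of the same early class, fell by 1.5 ± 0.238, adjusted p = 0.0135 (call lost at 0.0581 to 0.104 with any 1 array left out).

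Cytokine and chemokine lists held calls in both directions. Of 53 interleukins and receptors 6 rose and 5 fell (11.3% and 9.43%, against 5.56% and 3.42% of all features with a symbol). Interleukin rises numbered 2 (without mature 6) to 4 (without immature 5), and interleukin falls 0 (without mature 6, immature 3 or immature 5) to 1 (without mature 1), and 2 with slide rows as a block. Il15, which sustains memory T cells and NK cells, stood at 0.39 and 0.61 on the mature arrays, against -2.01 and -2.70 on the immature arrays (2.85 ± 0.305, adjusted p = 0.00366). Il2ra, the CD25 chain of the interleukin-2 receptor, stood at 0.83 and 0.40 on the mature arrays, against -3.53 and -3.57 on the immature arrays (4.17 ± 0.396, adjusted p = 0.00244). Both were steady; Il2ra is also carried by regulatory T cells, and T cell markers were higher on the same arrays. Il6ra, a chain of the interleukin-6 receptor, fell by 1.11 ± 0.212, adjusted p = 0.0259 (call lost at 0.0834 to 0.173 with any 1 array left out). In the chemokine ligand list 4 of 22 rose and 1 fell, with Ccl5 at 6.84 and 7.04 on the mature arrays, against 2.97 and 2.71 on the immature arrays (4.10 ± 0.362, adjusted p = 0.00200) and Cx3cl1, a membrane-bound chemokine, at 1.18 and 1.09 on the mature arrays, against -1.47 and -1.4 on the immature arrays (2.56 ± 0.256, adjusted p = 0.00286), both steady. Ligand rises numbered 2 (without mature 6) to 3 (without mature 1, immature 3 or immature 5). Among 25 receptors for chemokines and related lipids 4 rose and 4 fell. Receptor falls numbered 0 (without mature 6, immature 3 or immature 5) to 1 (without mature 1), and 2 with slide rows as a block. Beside Ccr7, S1pr3, a sphingosine phosphate receptor, rose by 2.24 ± 0.285, adjusted p = 0.00645 (call lost at 0.0549 without immature 5), and Ccr2, the receptor that brings monocytes and immature cells to tissue, fell by 1.32 ± 0.220, adjusted p = 0.0163 (call lost at 0.0568 to 0.119 with any 1 array left out).

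Of 85 actin and cell shape genes 15 rose and the others did not pass, though 1 fell with quantile normalization, 6 with normexp and 4 with the authors' values. Actin rises numbered 6 (without mature 6, immature 3 or immature 5) to 11 (without mature 1). Synpo2, an actin-binding protein of muscle and podocytes, stood at 1.88 and 1.81 on the mature arrays, against -3.31 and -3.08 on the immature arrays (5.04 ± 0.471, adjusted p = 0.00240). Palld, which binds actin bundles, stood at 1.25 and 1.10 on the mature arrays, against -1.45 and -1.52 on the immature arrays (2.67 ± 0.202, adjusted p = 0.00126), and Lima1, which slows actin turnover, changed by 2.09 ± 0.229 (adjusted p = 0.00394). The tubulin gene Tubb2b rose by 2.60 ± 0.230, adjusted p = 0.00200. All 4 were steady.

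Guidance genes, best known from the nervous system, rose more often than features at large. Of 65 axon guidance ligands and receptors 10 rose and 2 fell (15.4% and 3.08%, against 5.56% and 3.42% of all features with a symbol). Guidance rises numbered 3 (without mature 6) to 8 (without mature 1). Flrt3, a ligand of latrophilins, stood at 0.74 and 1.02 on the mature arrays, against -2.66 and -2.75 on the immature arrays (3.59 ± 0.202, adjusted p = 0.000686). Sema7a, a membrane-anchored semaphorin, stood at 1.53 and 1.24 on the mature arrays, against -1.51 and -2.33 on the immature arrays (3.31 ± 0.393, adjusted p = 0.00522), and Dscaml1, an adhesion molecule of neurons, at 1.91 and 1.82 on the mature arrays, against -2.95 and -4.20 on the immature arrays (5.44 ± 0.585, adjusted p = 0.00367). All 3 were steady. Of 43 integrin chains and adhesion molecules 6 rose and 4 fell (14.0% and 9.30%), but 6 and 7 with normexp. Adhesion rises numbered 0 (without mature 6) to 2 (without immature 5). Itgb8, the integrin chain that releases active TGF-beta, was not well above background on the immature arrays and at least 12-fold higher on the mature ones (adjusted p = 0.00743; call lost at 0.0575 to 0.0618 without mature 6 or immature 5). Cdh1, E-cadherin, stood at -3.87 and -3.25 on the mature arrays, against -1.14 and -0.45 on the immature arrays (-2.76 ± 0.306, adjusted p = 0.00419), a steady fall with 1 of the 2 mature arrays above background. Mmp25 and Mmp23, matrix metalloproteinases bound to the membrane, rose by 3.20 ± 0.356 and 2.34 ± 0.263 (adjusted p = 0.00420 and 0.00437). Both were steady, within a list that gave 4 rises and 1 fall of 39 (10.3% and 2.56%). Metalloproteinase rises numbered 2 (without mature 6 or immature 5) to 3 (without mature 1 or immature 3).

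Sodium, calcium and TRP channel genes rose more often than features at large. Of 73 tested, 11 rose and 3 fell (15.1% and 4.11%, against 5.56% and 3.42% of all features with a symbol). Channel rises numbered 6 (without immature 3 or immature 5) to 10 (without mature 1). Cacnb3, a beta subunit of voltage-gated calcium channels, stood at 5.2 and 5.37 on the mature arrays, against 1.03 and 0.53 on the immature arrays (4.51 ± 0.465, adjusted p = 0.00320), and Cacna1s, the pore chain of the skeletal muscle channel, at 1.75 and 1.80 on the mature arrays, against -0.62 and -0.36 on the immature arrays (2.27 ± 0.195, adjusted p = 0.00187). Scn2b, a sodium channel subunit, stood at -1.22 and -1.41 on the mature arrays, against -3.43 and -3.35 on the immature arrays (2.07 ± 0.199, adjusted p = 0.00247). Hcn3, a pacemaker channel, was not well above background on the immature arrays and at least 7.0-fold higher on the mature ones (adjusted p = 0.00246). All 4 were steady. In the other direction went Cacnb2, a second beta subunit (-1.48 ± 0.222, adjusted p = 0.0116; call lost at 0.0682 to 0.0910 without mature 6, immature 3 or immature 5), and Itpr1, a calcium release channel of the endoplasmic reticulum (-1.16 ± 0.189, adjusted p = 0.0147; call lost at 0.0613 to 0.114 with any 1 array left out). Among 50 potassium channel genes 4 rose and 1 fell (8% and 2%), nearer to the shares of all features with a symbol. Potassium channel rises numbered 1 (without mature 6 or immature 5) to 4 (without mature 1), and 2 with normexp. Kcnc1 was at least 5.23-fold higher on the mature arrays (adjusted p = 0.00197, not well above background on the immature arrays), and the regulatory subunit gene Kcne3 stood at -2.86 and -2.89 on the mature arrays, against -0.21 and 0.10 on the immature arrays (-2.82 ± 0.269, adjusted p = 0.00246). Both were steady.

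Synapse genes gave 7 rises and 1 fall of 93 (7.53% and 1.08%, against 5.56% and 3.42% of all features with a symbol). Synapse rises numbered 3 (without mature 6, immature 3 or immature 5) to 6 (without mature 1). Dlgap3, a scaffold of the postsynaptic density, stood at 0.51 and 0.54 on the mature arrays, against -2.77 and -2.30 on the immature arrays (3.06 ± 0.270, adjusted p = 0.00200), and Grin2c, a chain of the NMDA glutamate receptor, was at least 9.43-fold higher on the mature arrays (adjusted p = 0.00286, not well above background on the immature arrays). Both were steady. SNARE and vesicle fusion genes gave 3 rises and 2 falls of 86 (3.49% and 2.33%), both below those shares. Fusion gene rises numbered 1 (without mature 6, immature 3 or immature 5) to 2 (without mature 1), and 6 with normexp and 5 with the authors' values. Of 119 Rab GTPases and effectors, which direct vesicles, 10 rose and 5 fell (8.40% and 4.20%). Rab rises numbered 3 (without immature 5) to 7 (without mature 1), and 16 with normexp. Rabgap1l and Rab30 rose by 3.27 ± 0.229 and 2.53 ± 0.200 (adjusted p = 0.00104 and 0.00146), both steady.

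Solute carriers, the largest family of transporters, gave 14 rises and 11 falls of 252 (5.56% and 4.37%, against 5.56% and 3.42% of all features with a symbol), and more falls than rises with normexp (16 and 22) or the authors' values (18 and 19). Carrier rises numbered 4 (without immature 3) to 7 (without mature 1), and carrier falls 1 (without mature 6, immature 3 or immature 5) to 6 (without mature 1), and 3 with slide rows as a block, 22 with normexp and 19 with the authors' values. Slc4a8, a bicarbonate transporter, stood at 0.90 and 1.15 on the mature arrays, against -2.55 and -3.30 on the immature arrays (3.95 ± 0.430, adjusted p = 0.00384), and Slco5a1 at 0.45 and 0.04 on the mature arrays, against -2.71 and -3.84 on the immature arrays (3.51 ± 0.424, adjusted p = 0.00551). Slc22a23 was at least 16.2-fold higher on the mature arrays (adjusted p = 0.00243). The glucose transporter gene Slc2a3 stood at -1.82 and -1.54 on the mature arrays, against 0.24 and 0.27 on the immature arrays (-1.93 ± 0.206, adjusted p = 0.00362), and Aqp3, a channel for water and glycerol, at -2.17 and -1.93 on the mature arrays, against 1.03 and 1.61 on the immature arrays (-3.36 ± 0.319, adjusted p = 0.00243). These 5 changes were steady. ABC transporters gave 3 falls of 35, and 0 with any 1 array left out.

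Genes of cell division were lower in the mature cells. Of 69 tested cell cycle and mitosis genes 25 fell and 3 rose, with a median change of -0.99; the median was -1.19 in the first slide row and -0.77 in the second. Division falls numbered 2 (without mature 6 or immature 5) to 4 (without mature 1 or immature 3), and 10 with slide rows as a block, so the count rests on all 4 arrays. Kif23, a kinesin of the midbody, stood at 0.42 and 0.44 on the mature arrays, against 2.14 and 2.54 on the immature arrays (-1.91 ± 0.236, adjusted p = 0.00587). Cdc25c, the phosphatase that starts mitosis, was not well above background on either mature array and at least 2.47-fold lower there (adjusted p = 0.00562). These 2 falls were steady. Cdc20, the activator of the anaphase-promoting complex, stood at 0.39 and 0.69 on the mature arrays, against 1.80 and 2.18 on the immature arrays (-1.45 ± 0.253, adjusted p = 0.0191; call lost at 0.0685 to 0.131 with any 1 array left out). DNA replication and nucleotide synthesis gave 13 falls of 57, with a median of -0.83, and 1 rise with quantile normalization, normexp or the authors' values. Replication falls numbered 0 (without mature 1, immature 3 or immature 5) to 1 (without mature 6), and 4 with slide rows as a block, 26 with normexp and 20 with the authors' values. Mcm10, which loads the replication machinery, changed by -1.19 ± 0.195 (adjusted p = 0.0154; call lost at 0.0501 to 0.118 with any 1 array left out).

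The cell cycle genes that rose were a cyclin and 2 inhibitors. Ccnd2, cyclin D2, stood at 5.45 and 5.50 on the mature arrays, against 2.82 and 3.43 on the immature arrays (2.35 ± 0.242, adjusted p = 0.00319, steady). Cdkn1a, the inhibitor p21, stood at 5.62 and 5.46 on the mature arrays, against 3.95 and 4.18 on the immature arrays (1.47 ± 0.233, adjusted p = 0.0134; call lost at 0.0608 to 0.102 with any 1 array left out). Cdkn2a was not well above background on the immature arrays, with an adjusted p of 0.0209 that was lost at 0.0632 to 0.120 without mature 1, mature 6 or immature 3. Cdkn2b, the inhibitor p15, which was outside the list, was among the largest rises of all, at 1.60 and 1.94 on the mature arrays, against -2.35 and -2.82 on the immature arrays (4.35 ± 0.292, adjusted p = 0.000905, steady).

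Promoters of the fallen division genes were described by 2 short elements known from genes of the late cell cycle, the CHR (TTTGAA) and the CCAAT box (CCAAT), on both strands of the same RefSeq windows. The CHR was present in 17 of the 22 fallen members with a window (77.3%), in 15 of 32 members that did not pass (46.9%) and in 14.9% of all tested genes with a window. The CCAAT box was present in 20 of 22 (90.9%), in 17 of 32 (53.1%) and in 42.7% of all. Both occurred together in 16 of 22 (72.7%), 10 of 32 (31.2%) and 7.33% of all. Among falls outside the cell cycle and replication lists, 20.8% held a CHR and 44.3% a CCAAT box. The letters of E2F, AP-1, ISRE core and SRE motifs were searched too. In fallen division genes they were in 9.09%, 0%, 13.6% and 0%, against 8.98%, 6.86%, 3.83% and 1.4% of all. E2F letters were in 21.9% of members that did not pass. Of 11 fallen replication genes with a window, 1 held a CHR, 7 a CCAAT box and 4 E2F letters. Short motifs occur by chance, and these shares carry no test. The stretches of 4 fallen genes, upstream of the start and chosen after the values were seen, show how the elements lie to each other. Cdk1 is the kinase of mitotic entry, Ube2c the ubiquitin carrier of the anaphase-promoting complex and Top2a the topoisomerase that untangles chromosomes. Capitals mark CHR and CCAAT letters, which read TTCAAA and ATTGG where the element lies on the other strand.
Cdc20, chr4:118437344-118437423, minus strand: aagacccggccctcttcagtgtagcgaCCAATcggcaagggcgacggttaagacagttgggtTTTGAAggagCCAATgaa
Cdk1, chr10:69352913-69353022, minus strand: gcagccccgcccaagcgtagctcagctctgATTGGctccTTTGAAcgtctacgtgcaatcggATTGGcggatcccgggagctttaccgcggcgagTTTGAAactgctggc
Ube2c, chr2:164769839-164769928, plus strand: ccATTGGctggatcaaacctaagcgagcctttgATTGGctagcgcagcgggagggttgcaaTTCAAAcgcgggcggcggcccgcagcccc
Top2a, chr11:99024190-99024289, minus strand: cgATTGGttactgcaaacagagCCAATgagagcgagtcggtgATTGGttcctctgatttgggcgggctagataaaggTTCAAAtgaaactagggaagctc

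Cdk1, Ube2c and Top2a, whose promoter stretches are shown, all had groups that did not overlap, as did 51.1% of all features. Cdk1 stood at 0.59 and 0.45 on the mature arrays, against 1.77 and 1.64 on the immature arrays (-1.19 ± 0.246, adjusted p = 0.0338; call lost at 0.0886 to 0.184 with any 1 array left out). Ube2c stood at 1.96 and 1.96 on the mature arrays, against 3.13 and 3.69 on the immature arrays (-1.45 ± 0.263, adjusted p = 0.0216; call lost at 0.0525 to 0.135 with any 1 array left out). Top2a stood at -0.55 and -0.50 on the mature arrays, against 0.62 and 0.81 on the immature arrays (-1.24 ± 0.228, adjusted p = 0.0228; call lost at 0.0824 to 0.151 with any 1 array left out). In all 3, both immature arrays lay above both mature ones, but the call needed all 4 arrays.

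Genes of cell survival and death rose more often than features at large. Of 49 BCL2 family, caspase and related genes 10 rose and 2 fell (20.4% and 4.08%, against 5.56% and 3.42% of all features with a symbol). Survival list rises numbered 2 (without immature 5) to 5 (without mature 1). The rises held inhibitors and promoters of death alike. Bcl2l1, which encodes the protective protein BCL-xL, stood at 5.51 and 5.96 on the mature arrays, against 4.09 and 4.06 on the immature arrays (1.66 ± 0.253, adjusted p = 0.0122; call lost at 0.0761 to 0.0854 without mature 6, immature 3 or immature 5). Fas, a death receptor, stood at 1.02 and 0.42 on the mature arrays, against -2.02 and -3.30 on the immature arrays (3.38 ± 0.535, adjusted p = 0.0136; call lost at 0.0636 to 0.0776 without mature 1, mature 6 or immature 5). Bcl2l14 rose by 2.90 ± 0.272, adjusted p = 0.00240 and was steady, as was Birc2. Casp6 fell by 1.87 ± 0.242, adjusted p = 0.00695 (call lost at 0.0540 to 0.0567 without immature 3 or immature 5). Serpins, inhibitors of proteases, had 8 rises and 1 fall of 27. Serpin rises numbered 3 (without mature 6 or immature 3) to 4 (without mature 1 or immature 5), and 5 with slide rows as a block or normexp. Serpinb9, which blocks granzyme B, stood at 3.36 and 3.15 on the mature arrays, against -0.77 and -1.07 on the immature arrays (4.18 ± 0.305, adjusted p = 0.00115), Serpinb6b at 4.27 and 5.04 on the mature arrays, against -0.70 and -0.83 on the immature arrays (5.42 ± 0.272, adjusted p = 0.000686) and Serpinc1, antithrombin, at -0.03 and -0.17 on the mature arrays, against -3.94 and -3.55 on the immature arrays (3.64 ± 0.413, adjusted p = 0.00449); all 3 were steady.

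Central metabolism held few calls in the respiratory chain, while the number in glycolysis and in sterol synthesis depended on the processing. Glycolysis gave 3 rises and 2 falls of 34 (8.82% and 5.88%, against 5.56% and 3.42% of all features with a symbol). These numbered 3 and 4 with median scaling, and 4 and 7 with normexp. Both muscle and neuronal enolases were steady. Eno3 stood at 4.33 and 4.4 on the mature arrays, against 1.62 and 1.72 on the immature arrays (2.70 ± 0.250, adjusted p = 0.00236), and Eno2 at 0.86 and 0.47 on the mature arrays, against -2.0 and -2.02 on the immature arrays (2.68 ± 0.225, adjusted p = 0.00171). Respiratory chain genes gave 1 fall of 92, with a median of -0.17, and 0 with any 1 array left out. In sterol synthesis 4 of 40 rose and 1 fell. Sterol rises numbered 1 (without mature 6 or immature 3) to 3 (without mature 1 or immature 5), and 10 with normexp and 9 with the authors' values. Idi1, an isomerase of the isoprenoid route, stood at 2.5 and 2.25 on the mature arrays, against -0.53 and -0.55 on the immature arrays (2.92 ± 0.208, adjusted p = 0.00112), and its relative Idi2 was at least 10.52-fold higher on the mature arrays (adjusted p = 0.00124); both were steady. These relatives can share probe binding. Aldh1a2, which makes retinoic acid, stood at 0.64 and 0.19 on the mature arrays, against -2.71 and -2.79 on the immature arrays (3.16 ± 0.230, adjusted p = 0.00115), steady, while the nuclear receptor gene Rxra fell by 1.36 ± 0.218, adjusted p = 0.0138 (call lost at 0.0615 to 0.102 with any 1 array left out). Fabp4, a fatty acid carrier, rose by 3.06 ± 0.190, adjusted p = 0.000801, and Sod3, an extracellular superoxide dismutase, was at least 13.0-fold higher on the mature arrays (adjusted p = 0.00332); both were steady. Kmo, an enzyme of tryptophan breakdown, fell by 2.05 ± 0.339, adjusted p = 0.0160 (call lost at 0.0505 to 0.109 with any 1 array left out), and Il4i1, an amino acid oxidase, rose by 2.23 ± 0.313, adjusted p = 0.00906 (call lost at 0.0634 to 0.0668 without mature 6, immature 3 or immature 5).

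Genes of the ribosome, of tRNA charging and of the type I interferon response held few calls. Of 86 cytosolic ribosomal protein genes 1 rose, Rpl39l (2.02 ± 0.430, adjusted p = 0.0369; call lost at 0.123 to 0.147 without mature 1, mature 6 or immature 5). The list's median of 0.22 did not have 1 sign in both slide rows, at -0.08 in the first and 0.50 in the second. In limma 0 of 76 mitochondrial ribosomal protein genes and 0 of 35 tRNA synthetase genes passed. At an unadjusted p under 0.05 there were 5 higher and 11 lower of the first, and 0 higher and 8 lower of the second; with normexp 5 rose and 4 fell of the first, and 2 fell of the second. Ribosome biogenesis had 1 rise and 2 falls of 54 (falls numbered 0 with any 1 array left out, and 1 with slide rows as a block, 4 with quantile normalization, 7 with normexp and 6 with the authors' values), and a median of -0.46 that was below 0 in both rows, at -0.55 and -0.39. Polr1a, the large subunit of RNA polymerase I, fell by 1.37 ± 0.231, adjusted p = 0.0166 (call lost at 0.0531 to 0.117 with any 1 array left out). Of 45 type I interferon-stimulated genes 0 passed in limma, with 3 higher and 2 lower at an unadjusted p under 0.05 and a median of -0.17; with normexp 1 rose and 2 fell. The interferon-gamma induced GTPase gene Gbp2 stood at 3.82 and 3.52 on the mature arrays, against 1.62 and 1.41 on the immature arrays (2.16 ± 0.404, adjusted p = 0.0239; call lost at 0.0978 to 0.140 with any 1 array left out), 1 of 3 rises beside 1 fall in 22 GBP and IRG genes (13.6% and 4.55%). GTPase rises numbered 0 with any 1 array left out, and 1 with slide rows as a block.

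**Figure D4:**
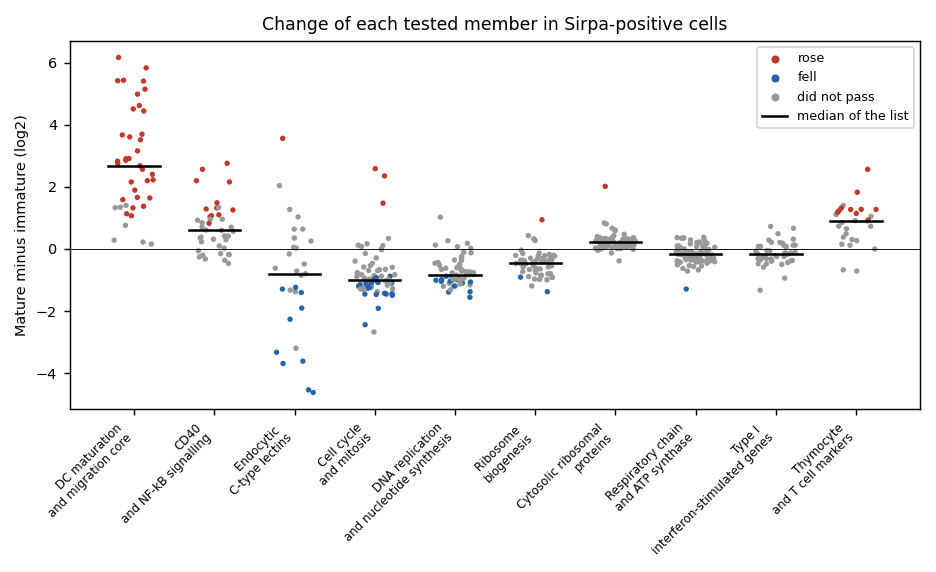
Change (mature minus immature, log2) of every tested member of 10 gene lists in Sirpa-positive cells; red points rose, blue points fell, grey points did not pass, and the black bar is the list's median. Cell cycle, replication and ribosome biogenesis members lie mostly below 0 (medians -0.99, -0.83 and -0.46), the maturation core above it (median 2.68), and most single members of the division lists did not pass.

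Outside all lists stood some of the largest steady rises. Spata31d1b stood at 2.64 and 2.88 on the mature arrays, against -2.52 and -2.46 on the immature arrays (5.25 ± 0.224, adjusted p = 0.000686). Asprv1, a skin protease, stood at 3.21 and 3.53 on the mature arrays, against -1.71 and -2.0 on the immature arrays (5.22 ± 0.467, adjusted p = 0.00209), and Clu, the extracellular chaperone clusterin, at 3.92 and 4.16 on the mature arrays, against -0.83 and -0.57 on the immature arrays (4.74 ± 0.410, adjusted p = 0.00187). Scube3, a secreted glycoprotein, rose by 4.70 ± 0.340, adjusted p = 0.00115 (1 of the 2 immature arrays above background), and Lad1, of the basement membrane, by 4.61 ± 0.530, adjusted p = 0.00474. Heatr9, Tnnt2 (cardiac troponin T) and Chst11 (a chondroitin sulfotransferase) were not well above background on the immature arrays and were at least 16.4-fold, at least 6.49-fold and at least 4.21-fold higher on the mature arrays.

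The largest steady falls outside the lists were smaller. Lmo1, a LIM-domain transcription cofactor, stood at -3.45 and -3.60 on the mature arrays, against -0.63 and -0.08 on the immature arrays (-3.17 ± 0.255, adjusted p = 0.00152; 1 of the 2 mature arrays above background). Iqgap2, a scaffold of the cytoskeleton, changed by -2.82 ± 0.302 and Pid1, which dampens insulin signals, by -2.93 ± 0.349 (adjusted p = 0.00366 and 0.00535). Each had 1 of the 2 mature arrays above background. F2rl2, a thrombin receptor, stood at -2.21 and -2.20 on the mature arrays, against 0.27 and 0.40 on the immature arrays (-2.54 ± 0.189, adjusted p = 0.00121), and Mctp1, a calcium-binding membrane protein, at -1.23 and -1.30 on the mature arrays, against 0.99 and 0.82 on the immature arrays (-2.17 ± 0.187, adjusted p = 0.00187). Hepacam2, Krt80 (a keratin) and 2810429I04Rik changed by -2.65 ± 0.308, -2.63 ± 0.301 and -2.12 ± 0.198 (adjusted p = 0.00501, 0.00470 and 0.00240). Ltf (lactoferrin, an iron-binding protein of neutrophil granules) and Nrg4 (a neuregulin) were not well above background on the mature arrays and were at least 2.52-fold and at least 2.74-fold lower there.

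Part of the array measures transcribed intervals that carry no gene symbol. Of 3498 tested features named only by an interval, on mm9 per the array design in the file headers, 85 rose (2.43%) and 35 fell (1.0%). These shares lie below the 4.35% and 2.53% over all features. Among the called intervals 21 rises and 1 fall were steady. Of these, 5 features lie within 1 region of chromosome 16. The feature at chr16:84702353-84710928 in the forward orientation (F in its name) stood at 3.85 and 3.74 on the mature arrays, against -0.29 and -0.55 on the immature arrays (4.22 ± 0.216, adjusted p = 0.000686). The reverse feature of the same interval rose by 4.17, and the 3 smaller ones inside it (84707202 to 84707748, 84708005 to 84708675 and 84708695 to 84708806) rose by 4.86, 4.61 and 4.29. All 5 were steady. A further interval, chr9:96632664-96653249 in the reverse orientation, stood at -0.13 and -0.05 on the mature arrays, against -5.89 and -6.06 on the immature arrays (5.88 ± 0.323, adjusted p = 0.000686). It was not well above background on the immature arrays and at least 19.2-fold higher on the mature ones. The steady fall was chr13:3477100-3497843, reverse, at -2.29 and -2.11 on the mature arrays, against -0.45 and -0.12 on the immature arrays (-1.91 ± 0.214, adjusted p = 0.00426).

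The same comparison in Sirpa-negative cells went the same way for most of the called genes. It shares no array with this one, but both rest on the same estimate of each feature's spread. The calls in the 2 subsets are therefore not independent. Of the 1050 rises in Sirpa-positive cells 874 also rose in Sirpa-negative cells and 0 fell there, where 9.22% of all features rose. Of the 612 falls 402 also fell there, where 7.24% of all features fell, and 6 rose. Across all 24145 features the changes of the subsets correlated at 0.672, a description only. A difference between the subsets' changes was tested by its own term in limma, and 0 features passed (0.0%), with a smallest adjusted p of 0.0688 and 1945 features at an unadjusted p under 0.05. That count was 168 with normexp and quantile normalization, 148 with the authors' values, 138 with probes well above background on all 4 arrays, 186 with trended and robust variances, 4 with the mean of a gene's probes and 1 with median scaling. It was 0 with quantile normalization, without a filter on dim probes, with a block for slide rows and with any 1 of the 4 arrays left out.

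The 6 genes called in opposite directions did not pass the test of the difference. Kcne3 changed by -2.82 in Sirpa-positive cells and 1.46 in Sirpa-negative cells (adjusted p of the difference = 0.0688). Maf, a transcription factor of macrophages, changed by -1.06 in Sirpa-positive cells and 1.68 in Sirpa-negative cells (adjusted p of the difference = 0.0688), and C2, a complement protease, by -0.93 in Sirpa-positive cells and 1.62 in Sirpa-negative cells (adjusted p of the difference = 0.0688). Hpgds, which makes prostaglandin D2, changed by -1.04 in Sirpa-positive cells and 1.06 in Sirpa-negative cells (adjusted p of the difference = 0.0714), Il1rl2, a receptor for interleukin-36, by -1.15 in Sirpa-positive cells and 1.10 in Sirpa-negative cells (adjusted p of the difference = 0.0862) and Adamdec1, a secreted protease, by -1.57 in Sirpa-positive cells and 1.4 in Sirpa-negative cells (adjusted p of the difference = 0.0930). Of these 6, Kcne3 had a steady fall in Sirpa-positive cells. The call of Adamdec1 was lost at 0.0623 to 0.202 without mature 6, immature 3 or immature 5, C2 at 0.109 to 0.266 with any 1 array left out, Hpgds at 0.0735 to 0.153 with any 1 array left out, Il1rl2 at 0.0896 to 0.197 with any 1 array left out and Maf at 0.0841 to 0.238 with any 1 array left out. Further genes, also short of that test, had a large value in 1 subset and a small one in the other. The mature minus immature difference of Irf4 was 0.27 in Sirpa-positive cells and 3.63 in Sirpa-negative cells (adjusted p of the difference = 0.0688) and that of Axl, a receptor for dying cells, was -0.30 in Sirpa-positive cells and 4.90 in Sirpa-negative cells (adjusted p of the difference = 0.0688). For Gpr4, a proton-sensing receptor, it was 2.67 in Sirpa-positive cells and -0.58 in Sirpa-negative cells (adjusted p of the difference = 0.0688), for Cacna1s 2.27 in Sirpa-positive cells and 0.34 in Sirpa-negative cells (adjusted p of the difference = 0.0838) and for Cd1d1 3.33 in Sirpa-positive cells and 0.87 in Sirpa-negative cells (adjusted p of the difference = 0.0852). For Sirpa itself it was -0.50 in Sirpa-positive cells and 1.51 in Sirpa-negative cells (adjusted p of the difference = 0.0930).

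**Figure D5:**
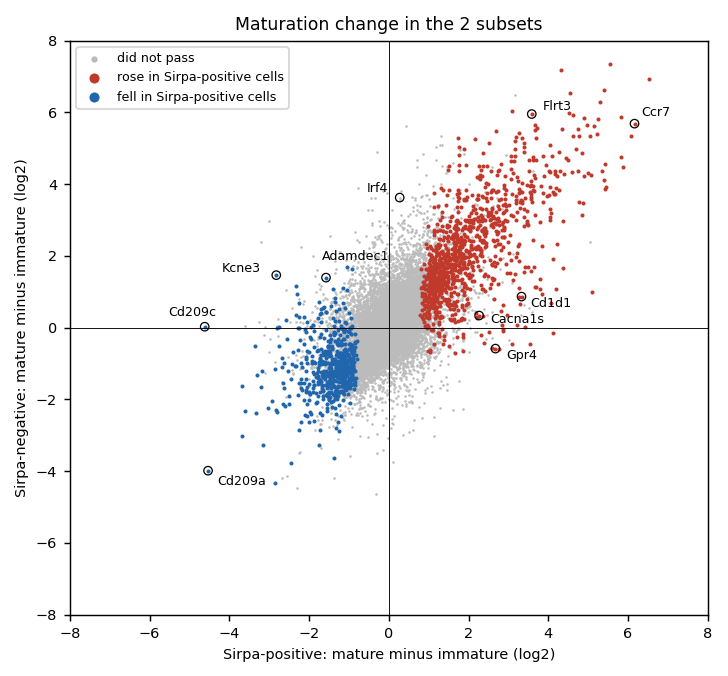
Maturation change of every tested feature in Sirpa-positive cells (x axis) and in Sirpa-negative cells (y axis), both mature minus immature on the log2 scale; red points rose and blue points fell in Sirpa-positive cells, and grey points did not pass there. Most called features lie in the quadrants where the subsets share a sign, and ringed genes away from the diagonal, such as Kcne3, Gpr4 and Irf4, did not pass the test of the difference.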

How the data were processed

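RNA of sorted thymic dendritic cells was hybridised in 1 colour to Agilent arrays, 1 array a sample. Intensity values of each spot were deposited as scanner output of Agilent Feature Extraction (10.7.3.1 per the file headers, 10.5 per the submitters' processing notes). The processed intensity was background-subtracted and spatially detrended by that program, per the file headers, and was not normalized between arrays; flags for detection, saturation and outliers are other deposited values. A series table of log2 values was also deposited by the authors. Limma is named in the submitters' processing notes, with no settings. Its columns had almost the same distribution and ranked probes as the median pixel intensity did, so its scale is log2 as inferred and its centring is common to all arrays.

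Control spots and outlier spots were left out, spots of a probe were averaged, and log2 of the processed intensity was centred on each array's 75th percentile. Kept were probes that both arrays of a group, in 1 or more of the 4 groups, showed well above background (33686 of 55681), and a gene was represented by its brightest kept probe, which gave 24145 features, 13865 with a symbol. Probes were named by matching array accessions to RefSeq (26582 matched, 29099 did not). For 5871 genes with several probes the others were set aside; among the called genes named in the text, those of Cd80 differed in sign. Limma 3.58.1 in R 4.3.3 fitted 4 group means to all 8 arrays (4 residual and 3.26 prior degrees of freedom), with Benjamini-Hochberg adjustment and a two-sided threshold of 0.05. The 4 arrays of this comparison limit the precision.

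Genes were named by a rule: per list, up to 4 risen and 4 fallen members with the smallest p among steady ones, filled up to 2 with others that passed; outside the lists the 10 largest steady changes each way; and 15 fixed genes such as Cd40 and Sirpa. The members and the 79 lists were chosen with earlier results of these data known. A planned list of long noncoding RNAs matched no name on the array and was replaced by the features named only by an interval. Normexp (offset 50) ran on the median pixel intensity, because no mean intensity was used here. The fit was tested on simulated data made from these 24145 features: of 50 genes each, changes of 0.5, 1, 2 and 3 were recovered in 4%, 4%, 70% and 96%, with 3 false calls. Fewer features were changed there than were called in the data, so these rates do not carry over. Some named items are not reported here. Figures were drawn with matplotlib 3.10.9.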

Additional observations from a re-analysis of the deposited data

How the results depend on the processing

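Rises numbered 765 to 1312 under the scalings, variance models, probe rules, row block and smaller fit tried, but 355 with no filter on dim probes, and 309 to 664 with 1 array left out. Falls numbered 1207 with normexp and quantile normalization, 1010 with the authors' values, 1005 with trended and robust variances, 296 with the slide row as a block, 75 with no filter, and 84 to 243 with 1 array left out. The split of rises to falls, 1050 to 612, was therefore 1227 to 1207 with normexp and 1166 to 1010 with the authors' values. The test of a difference between the subsets gave 168 features with normexp, 148 with the authors' values, 186 with trended and robust variances, 138 with probes above background on all 4 arrays, 4 with the mean of a gene's probes and 1 with median scaling, against 0; the causes were not tested. Of 117 steady named genes 87 were tested under each of the 10 alternatives that leave out no array, and 87 of these passed each; the other 30 could not be tested where all 4 arrays had to be above background. Wherever tested, 115 of the 117 passed; the 4 fits with 1 array left out are part of the definition of steady and are not counted here. The call was lost for Dlg5 (adjusted p = 0.0628 with normexp) and Ms4a1 (0.148 with normexp, 0.0834 with the authors' values). Of 158 list counts, from 79 lists in both directions, 19 moved by over 1.5 times with median scaling, 19 with quantile normalization, 20 with the mean of a gene's probes, 35 with probes above background on all 4 arrays, 47 with the 4 Sirpa-positive arrays alone, 52 with the authors' values, 53 with trended and robust variances, 62 with slide rows as a block, 73 with normexp, 115 with no filter, and 90 to 116 with 1 array left out. Among 257 named genes the difference of Zbtb46 turned in sign, at 0.0145 with quantile normalization and between -0.285 and 0.242 with 1 array left out (above 0 at 0.0854 without mature 1 and at 0.242 without immature 5); it did not pass under any of these. No paired analysis was run, because the labels do not say which samples stem from the same mice or sorting run. Each number in the titles belongs to 1 sample only and so does not show pairing. Slide rows, which are no replicate numbers, were used as a block above. On simulated data changes of 0.5 and 1 on the log2 scale were mostly missed and sizes between 1 and 2 were not simulated. The simulation changed 50 genes at each size, far fewer in all than the 1662 features called in the data. Its adjusted threshold was therefore stricter, and its recovery rates do not carry over to the data. A gene that did not pass may still differ. Features near background give bounds only.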

Other observations

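Feedback regulators of signalling rose more often than features at large. Of 63 MAP kinase phosphatases, RGS proteins and Sprouty relatives 11 rose and 4 fell. Their rises numbered 3 (without mature 6) to 6 (without mature 1). Dusp5, a nuclear phosphatase that switches off ERK, stood at 2.09 and 1.95 on the mature arrays, against -0.84 and -0.81 on the immature arrays (2.85 ± 0.184, adjusted p = 0.000875), and Ptpn21, a tyrosine phosphatase, at 0.32 and 0.26 on the mature arrays, against -2.17 and -1.98 on the immature arrays (2.37 ± 0.243, adjusted p = 0.00317). Rgs18, which shortens G protein signals in blood cells, stood at -3.39 and -2.43 on the mature arrays, against 0.07 and 0.15 on the immature arrays (-3.02 ± 0.316, adjusted p = 0.00336). All 3 were steady. In the WNT pathway 5 of 38 rose and 1 fell, and its rises numbered 2 (without mature 6) to 4 (without mature 1), and 3 with slide rows as a block. Dkkl1, a relative of WNT inhibitors, rose by 2.89 ± 0.224, adjusted p = 0.00136 and was steady. Tcf7, a T cell factor of that pathway, changed by 2.56 ± 0.262 (steady). It is itself in the list of T cell markers that were higher on the mature arrays, as that list's largest change and 1 steady rise. The list is therefore not separate from Tcf7, and the part of T cells was not tested.

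Steady genes occurred in further lists too, of which some are given here. Gpr171, an orphan receptor, stood at 1.72 and 1.86 on the mature arrays, against 3.54 and 3.62 on the immature arrays (-1.79 ± 0.209, adjusted p = 0.00502). Its family of 78 receptors had 5 rises and 7 falls (6.41% and 8.97%, against 5.56% and 3.42% of all features with a symbol). The falls numbered 1 (without immature 3 or immature 5) to 4 (without mature 1), and 3 with slide rows as a block, 14 with normexp and 11 with the authors' values. Tspan3, a tetraspanin, rose by 2.62 ± 0.308, adjusted p = 0.00508, and of 25 tetraspanins 2 rose and 4 fell (8% and 16%). Tetraspanin falls numbered 0 with any 1 array left out, and 1 with slide rows as a block. Rnf19a, a ubiquitin ligase, Dnajb2, a co-chaperone best known from neurons, and Hdac11, a deacetylase, rose by 1.92 ± 0.237, 2.31 ± 0.232 and 2.02 ± 0.225 (adjusted p = 0.00587, 0.00291 and 0.00420). Histone and DNA methylation enzymes gave 8 rises of 92 (8.70%), and falls appeared only with normexp (3) or the authors' values (2). Rises among these enzymes numbered 1 (without immature 5) to 3 (without mature 1), and 4 with slide rows as a block and 5 with median scaling. Markers of type 2 dendritic cells gave 1 rise and 4 falls of 25, and those of type 1 cells 3 rises and 1 fall of 22. Type 2 falls numbered 1 (without immature 3) to 3 (without mature 1 or mature 6), and 7 with quantile normalization, 11 with normexp and 10 with the authors' values, and type 1 rises 1 (without mature 6, immature 3 or immature 5) to 2 (without mature 1), and 1 with slide rows as a block. Steady calls in these marker lists were the fall of Cd209a and the rise of Ly75, both given above.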
